A study of Mus musculus with 4 samples.

Results

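A group of 10 receptor genes through which cytokines of T cells and of inflammation can act on brain cells were followed in septal tissue of mice with and without the T cell receptor beta chain. They were Ifngr1, Ifngr2, Il4ra, Il13ra1, Il17ra, Il17rd, Il6st, Il6ra, Tnfrsf1a and Il1r1, taken by symbol from the deposited rows. All 10 were listed, of 15409 gene rows in all, and 9 passed the filter on low values (a mean of at least 1 CPM, a unit that scales reads to a common library total). Il17rd, at a mean of 0.747 CPM, did not, and its tests come from a fit with no filter.

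The 4 libraries were RNA-seq libraries of septal tissue, 2 from TCRb-/- mice and 2 from wild-type (WT) mice. Every mouse, WT included, had been restrained for 30 min on 3 days and was killed 1.5 h after the last restraint, so that no unstressed group entered the comparison. Each library pooled 4 to 5 mice, and each of the 2 experiments held 1 library of each genotype. Replicate 1 of each genotype was experiment 1 and replicate 2 was experiment 2. TCRb-/- mice lack alpha-beta T cells in the whole body and keep gamma-delta T cells and B cells, so the comparison does not isolate 1 tissue or 1 cytokine. RNA was taken from a lysate cleared by centrifugation and treated with detergent, not from whole tissue. The labels used here give no strain, age or sex.

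Cytokine receptors of this kind work as assemblies of a chain that binds the ligand and a chain that carries the signal. IFNGR1 and IFNGR2, the IL-4 and IL-13 receptor chains and the IL-6 family receptors signal through Janus kinases (JAKs) and STAT proteins. The IL-17, TNF and IL-1 receptors signal through adaptors that lead to NF-kB and MAP kinases. In brain, T cells of the meninges are a known source of interferon gamma (IFN-gamma), IL-4 and IL-17, and signals through these receptors in neurons and glia have been tied to social behaviour, memory and anxiety-like behaviour in mice. In bulk tissue, fewer cells of a type and less RNA per cell cannot be told apart.

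RefSeq promoter windows on GRCm38.p6, the 250 bases before the annotated start, were found for 9 of the 10 genes, with 2 windows for Il1r1. Il17ra had no entry. For 4 of the 10 windows, among them that of Tnfrsf1a, the RefSeq start lies inside the GENCODE gene whose coordinates are given with each gene below. Of these 10 windows, 3 are shown because they span the range of base composition among the receptors and hold the only match to a STAT-binding motif. In the windows of Ifngr2 (chr16:91546809-91547058, + strand) and Il1r1 (chr1:40224830-40225079, + strand), capitals mark CG dinucleotides. In the window of Tnfrsf1a (chr6:125349473-125349722, + strand), capitals mark the match to the motif.
Ifngr2: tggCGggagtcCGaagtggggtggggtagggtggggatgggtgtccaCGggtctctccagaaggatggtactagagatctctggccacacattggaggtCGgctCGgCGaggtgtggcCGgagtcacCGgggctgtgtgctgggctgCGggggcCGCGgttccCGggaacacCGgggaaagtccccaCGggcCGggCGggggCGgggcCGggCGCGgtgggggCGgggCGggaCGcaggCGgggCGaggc
Il1r1: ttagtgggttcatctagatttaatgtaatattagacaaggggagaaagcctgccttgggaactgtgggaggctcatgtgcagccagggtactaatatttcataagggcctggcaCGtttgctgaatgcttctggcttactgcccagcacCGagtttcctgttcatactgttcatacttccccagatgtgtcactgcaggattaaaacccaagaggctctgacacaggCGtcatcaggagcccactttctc
Tnfrsf1a: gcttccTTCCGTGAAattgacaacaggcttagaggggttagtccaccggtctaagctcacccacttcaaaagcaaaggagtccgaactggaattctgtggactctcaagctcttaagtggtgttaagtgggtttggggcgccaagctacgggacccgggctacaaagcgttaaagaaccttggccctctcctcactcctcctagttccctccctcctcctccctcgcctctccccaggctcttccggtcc
The Ifngr2 window held 25 CG dinucleotides and 74.0% G or C, whereas this Il1r1 window held 3 and 48.4%. The receptor windows had a median of 14 CG dinucleotides, beside a median of 6 over 32851 promoter windows of the same length. The palindromic motif TTCNNNGAA, the gamma-activated site that STAT dimers recognise, was searched on both strands. It occurred in 1 receptor window, that of Tnfrsf1a, 244 bases before the RefSeq start and 117 bases after the GENCODE start of the gene, and in 7.02% of all promoter windows. The core of the interferon-stimulated response element (TTTC, any 2 bases, TTTC) was searched on both strands and occurred in 0 receptor windows and in 2.98% of all promoter windows. These are matches of letters, and binding at them was not measured.

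Library totals were between 19988137 and 26210790 reads. Trbc2, a constant segment of the deleted chain, had 0 reads in both TCRb-/- libraries and 169 and 86 reads in the WT libraries. All 7 septal markers were listed, with sums of 221 to 273 CPM. Of 10 T cell markers 3 were listed, Lck, Trac and Trbc2, and the others were not among the listed rows. The libraries differed in the tissue they held: the sum of 8 striatal markers was 4086 CPM in TCRb-/- replicate 1, 850 CPM in TCRb-/- replicate 2, 3653 CPM in WT replicate 1 and 2181 CPM in WT replicate 2. The sum of 11 choroid plexus markers was 2146, 6887, 1315 and 4189 CPM in the same order.

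Levels were compared between genes as RPKM, the CPM divided by the length of a gene's annotated exons in kilobases. Ifngr2, the signalling chain of the IFN-gamma receptor, was the most abundant at 17.6 ± 1.39 RPKM (SD, n = 4 libraries). It was followed by its ligand-binding partner Ifngr1 at 8.41 ± 0.514 RPKM. Il13ra1 had 4.31 ± 0.257 RPKM, Tnfrsf1a 2.65 ± 0.481 RPKM and Il6st 2.41 ± 0.706 RPKM. Below these stood Il4ra at 0.905 ± 0.133 RPKM, Il17ra at 0.535 ± 0.176 RPKM and Il1r1 at 0.340 ± 0.115 RPKM. Il6ra had 0.211 ± 0.0507 RPKM and Il17rd was lowest at 0.0680 ± 0.0268 RPKM. Neighbours in this order were separated in all 4 libraries except for 2 pairs: Tnfrsf1a was above Il6st in 2 of 4 libraries and Il17ra above Il1r1 in 3 of 4. The order depended on the length used. With the mean transcript length in place of all annotated exons, Il6st, at 9.38 RPKM, stood above Tnfrsf1a at 8.12 RPKM and Il13ra1 at 4.31 RPKM.

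**Figure D1:**
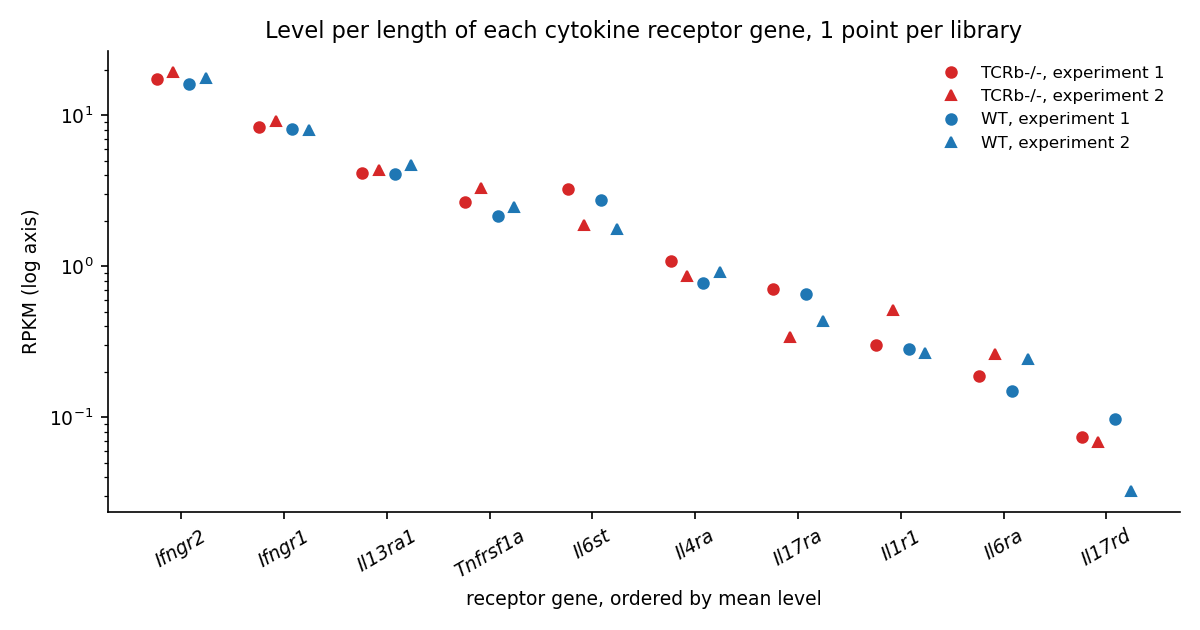
Level of each receptor gene in RPKM (log axis), genes ordered by mean, 1 point per library (red TCRb-/-, blue WT, circles experiment 1, triangles experiment 2). Ifngr2 was highest at 17.6 RPKM and Il17rd lowest at 0.0680 RPKM; the circles of Il6st and Il17ra lie above their triangles in both genotypes.

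The study's question, from its labels, was how septal expression differs between TCRb-/- and WT mice after restraint. None of the 10 receptor genes differed between the genotypes past the threshold, an adjusted p of 0.05 (limma, Benjamini-Hochberg over all genes tested). With genotype alone in the fit, the test called 0 of 13912 genes (0.00%), and 43 genes (0.309%) had an unadjusted p under 0.05. The deleted Trbc2, with 0 reads in both TCRb-/- libraries, was among the genes that this fit did not call. Without TCRb-/- replicate 1 that fit called 38 genes, and 0 receptors. Leaving out 1 library also sets the genotypes on unequal experiments. With the experiment as a block, on all 4 libraries, the test called 2 genes (0.0144%), neither of them a receptor of this group. These were the deleted Trbc2, lower in TCRb-/-, and a choroid plexus marker, higher in TCRb-/-. The call of Trbc2 is a check of the genotype. Trac and Lck, the other listed T cell markers, were not called in the blocked fit. In that fit 784 genes (5.64%) had an unadjusted p under 0.05, and 0 of the 9 tested receptors did. Differences below are TCRb-/- minus WT in log2(CPM + 1), a scale that understates the change of genes with few reads. An exact permutation test of 2 libraries against 2 cannot give a two-sided p below 0.333.

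Of the 9 tested receptors, 6 were higher in TCRb-/- than in WT in both experiments: Ifngr1, Ifngr2, Il6st, Il6ra, Tnfrsf1a and Il1r1. Over all genes tested the share was 27.0%. None of the 9 was lower in both experiments, beside 24.5% of all genes. Both TCRb-/- libraries were above both WT libraries for 3 of the 9, Ifngr1, Tnfrsf1a and Il1r1, beside 9.76% of all genes. The median difference of the 9 was 0.13, beside 0.00069 for all genes tested. These receptors were chosen with results of these data known, and 9 genes in 4 libraries share whatever sets the libraries apart, so the counts are a description.

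**Figure D2:**
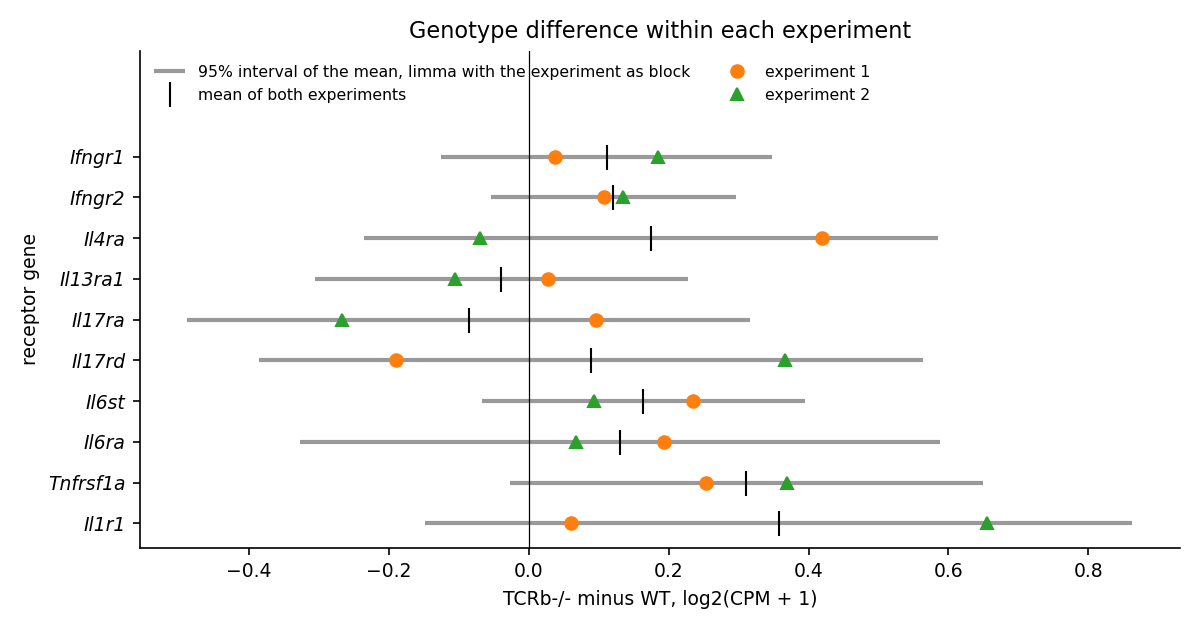
Difference between TCRb-/- and WT for each receptor gene in log2(CPM + 1), within each experiment (points) and from the limma fit with the experiment as a block (95% interval). Every interval includes 0; that of Tnfrsf1a runs from -0.03 to 0.65.

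Ifngr1, the chain that binds IFN-gamma (gene at chr10:19591949-19610229, + strand, GRCm38), was at 23.8 CPM in TCRb-/- replicate 1 and at 26.1 CPM in replicate 2. The WT libraries had 23.2 and 22.8 CPM, and below too replicate 1 comes first. The groups did not overlap, and 3 of the 4 libraries lay close together, with TCRb-/- replicate 2 above them. The difference was 0.11 (SE 0.15, limma adjusted p = 1.00), with a 95% interval of -0.13 to 0.35 in the blocked fit. Ifngr2 (chr16:91547072-91565623, + strand), which brings JAK2 to the complex, had 65.1 and 73.1 CPM in TCRb-/- and 60.4 and 66.5 CPM in WT. WT replicate 2 lay between the TCRb-/- libraries, and the difference was 0.12 (SE 0.14, limma adjusted p = 1.00). Its 95% interval in the blocked fit ran from -0.05 to 0.30.

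Il4ra (chr7:125552120-125579474, + strand) binds IL-4 and is part of both IL-4 receptors and of the IL-13 receptor. It had 6.51 and 5.15 CPM in TCRb-/- and 4.62 and 5.46 CPM in WT, so that the groups overlapped. It was higher in TCRb-/- by 0.42 in experiment 1 and lower there in experiment 2, with a difference of -0.07. Il13ra1 (chrX:36112110-36171259, + strand), which pairs with IL4RA to form the receptor for both cytokines, had 15.5 and 16.0 CPM in TCRb-/- and 15.1 and 17.3 CPM in WT. Its difference was -0.04 (SE 0.16, limma adjusted p = 1.00), and the TCRb-/- libraries lay between the WT libraries. The annotated exons of Il4ra overlap those of Gm44876 on the other strand over 571 bases, 9.51% of their length. No source used here says that reads were counted by strand, so reads of the 2 genes cannot be told apart there.

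Il17ra (chr6:120463247-120487559, + strand), the chain shared by the IL-17 family, had 6.14 and 2.95 CPM in TCRb-/- and 5.68 and 3.76 CPM in WT. Its high libraries were the 2 of experiment 1, one of each genotype, and the genotype difference was -0.09 (SE 0.35, limma adjusted p = 1.00). Il17rd (chr14:27038941-27107286, + strand), also known as Sef, a membrane protein that dampens FGF signalling and can join IL-17RA, had 20 and 15 reads in TCRb-/- and 28 and 8 reads in WT. This was 0.813, 0.750, 1.07 and 0.358 CPM, with the highest and the lowest library both WT. Without a filter its difference was 0.09 (SE 0.25, limma), and at this depth no difference was detectable.

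Il6st (chr13:112464070-112510086, + strand) encodes gp130, the signalling chain shared by IL-6, LIF, CNTF and IL-11. It had 36.0 and 20.9 CPM in TCRb-/- and 30.4 and 19.5 CPM in WT. Both libraries of experiment 1 were above both of experiment 2, and within each experiment TCRb-/- was the higher, by 0.23 and by 0.09. The genotype difference was 0.16 (SE 0.33, limma adjusted p = 1.00), with a 95% interval of -0.07 to 0.40 in the blocked fit. Il6ra (chr3:89864059-89913196, − strand), the chain that binds IL-6, had 40 and 45 reads in TCRb-/- and 34 and 47 reads in WT, with 1.63 and 2.25 CPM in the TCRb-/- libraries. The high libraries of Il6ra were those of experiment 2, the reverse of Il6st, and its genotype difference was 0.13 (SE 0.26, limma adjusted p = 1.00). The 95% interval in the blocked fit was -0.33 to 0.59. The exons of Il6ra overlap Gm42809 on the other strand over 242 bases, 2.80% of their length.

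Tnfrsf1a (chr6:125349362-125362484, + strand), TNF receptor 1, whose death domain recruits TRADD, had 6.87 and 8.56 CPM in TCRb-/- and 5.61 and 6.40 CPM in WT. Both TCRb-/- libraries were above both WT libraries, by 0.25 within experiment 1 and 0.37 within experiment 2. The difference was 0.31 (SE 0.20, limma adjusted p = 1.00). In the blocked fit its unadjusted p was 0.0669, the smallest of the 9 (limma, adjusted p = 0.848). Il1r1 (chr1:40225080-40317257, + strand), the signalling receptor for IL-1, had 1.91 and 3.25 CPM in TCRb-/- and 1.79 and 1.70 CPM in WT. TCRb-/- replicate 2 stood above the other 3 libraries, with 65 reads beside 38 to 47. Its exact 95% interval, 2.51 to 4.14 CPM, lay above that of WT replicate 2, 1.20 to 2.33 CPM; it overlapped that of TCRb-/- replicate 1, which reached 2.54 CPM. These intervals cover counting error only. The genotype difference of Il1r1 was 0.36 (SE 0.26, limma adjusted p = 1.00), with a 95% interval of -0.15 to 0.86 in the blocked fit. This difference was 0.085 without TCRb-/- replicate 2. Without it that of Tnfrsf1a was 0.17, of Ifngr1 0.048, of Ifngr2 0.038 and of Il6ra -0.023. Without WT replicate 1 that of Ifngr2 was 0.052 and that of Il6ra -0.086. Fits with a library left out held no block and unequal experiments, so these values also take in part of the experiment difference. Markers of some other cells were also higher in TCRb-/-. All 11 choroid plexus markers were higher in both experiments, beside 27.0% of all genes, with the summed levels given above. Of 8 endothelial markers 7 were listed and 4 of 5 tested were higher in both, with sums of 22.7 and 26.8 CPM in TCRb-/- and 18.0 and 18.4 CPM in WT. Of 9 astrocyte markers 6 were higher in both, with sums of 2780 and 2756 CPM in TCRb-/- and 2540 and 2573 CPM in WT. Of 5 tested ependymal markers 4 were higher in both, with sums of 115 and 132 CPM against 84.7 and 123 CPM. Sums of 12 microglial markers, 5 of them higher in both, were 228 and 227 CPM in TCRb-/- and 224 and 214 CPM in WT. In other lists 3 of 7 septal, 2 of 6 thalamic and 0 of 7 oligodendrocyte markers were higher in both. The same count was 0 for 6 tested meningeal fibroblast, 8 striatal and 5 neuronal markers. Lower in both were 1 astrocyte, 1 septal, 2 neuronal and 3 T cell markers. The part of these cells in the receptor differences was not tested. Il17ra and Tnfrsf1a share chromosome 6 with the deleted Trbc2 (chr6:41546730-41548352), at distances of 78.9 and 83.8 Mb. Of the pathway genes named below, Il17rc and Usp18 also lie on chromosome 6, at 71.9 and 79.7 Mb.

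Chains that act together, and the pair of TNF receptors, kept unequal levels, compared as a ratio of RPKM within each library. Values are given for TCRb-/- replicates 1 and 2 first and then WT replicates 1 and 2. Ifngr2 over Ifngr1 was 2.07, 2.12, 1.97 and 2.20, the steadiest of the ratios. Il13ra1 over Il4ra was 3.84, 5.02, 5.31 and 5.13, with the lowest value in TCRb-/- replicate 1. Il6st over Il6ra was 17.2, 7.23, 18.3 and 7.24, so that the ratio followed the experiment and not the genotype. Il17rc, the partner of IL-17RA for IL-17A and IL-17F, was at 4.90, 12.9, 4.72 and 7.07 times Il17ra, higher in experiment 2 in both genotypes. Il17rd over Il17ra was 0.104, 0.200, 0.148 and 0.0751. Lifr and Cntfr, which join gp130 in the receptors for LIF and CNTF, stood on either side of Il6st. Lifr over Il6st was 0.438, 0.618, 0.662 and 0.580, and Cntfr over Il6st was 6.27, 9.81, 4.71 and 9.89. Il1rap, the accessory chain of the IL-1 receptor, was at 9.52, 4.84, 10.7 and 9.65 times Il1r1, lowest where Il1r1 was highest. Tnfrsf1b, the second TNF receptor, was below Tnfrsf1a in every library, at 0.510, 0.456, 0.545 and 0.332 of its level. The size of these ratios depends on the length used, by the same factor in every library. With the mean transcript length the mean of Ifngr2 over Ifngr1 was 1.28 in place of 2.09 and that of Il13ra1 over Il4ra 1.85 in place of 4.82. The mean of Il6st over Il6ra was 33.7 in place of 12.5, of Il1rap over Il1r1 20.3 in place of 8.67 and of Tnfrsf1b over Tnfrsf1a 0.273 in place of 0.461. For none of the 9 pairs did the mean ratio cross 1 with the mean or the longest transcript length. Il2rg and Il13ra2 were not among the listed rows.

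**Figure D3:**
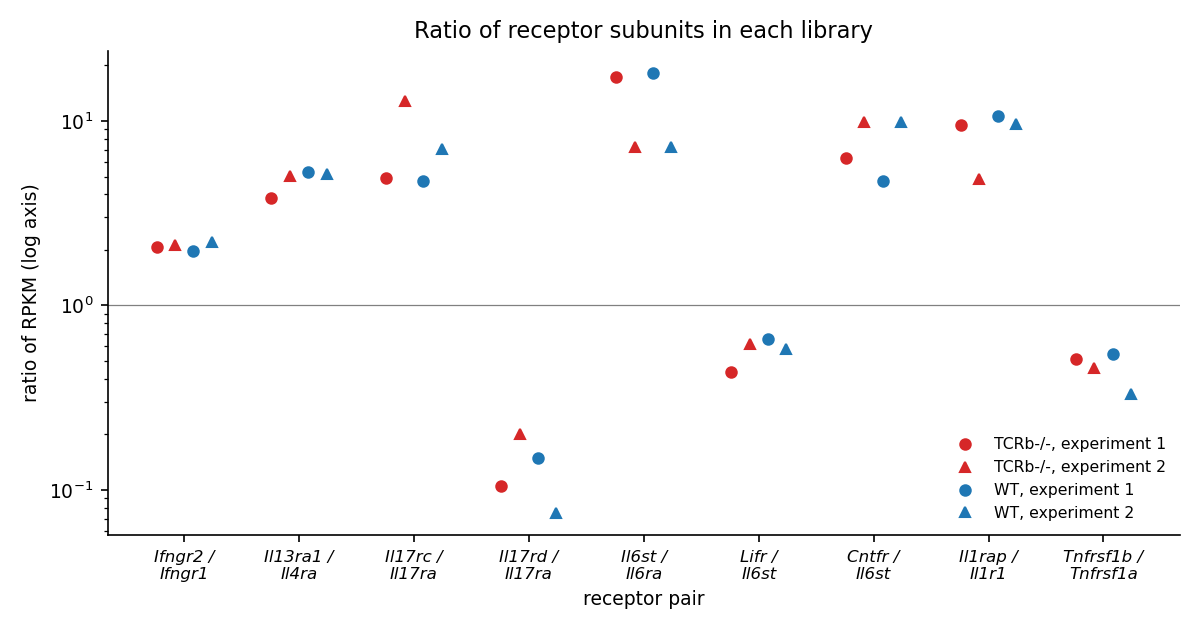
Ratio of RPKM between receptor chains that act together, and between the TNF receptors, 1 point per library (log axis). Ifngr2 over Ifngr1 stays between 1.97 and 2.20, whereas Il6st over Il6ra is 17.2 and 18.3 in experiment 1 and 7.23 and 7.24 in experiment 2.

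Experiment 2 differed from experiment 1 in 2 of the 9 tested receptors, Il6st and Il17ra, both lower in experiment 2. This share is near the background, in which 3292 of 13912 genes (23.7%) were called (limma, adjusted p under 0.05, experiment alone in the fit), 14.7% of all genes lower and 8.95% higher in experiment 2. The count over all genes was 1379 without TCRb-/- replicate 1, 1797 without TCRb-/- replicate 2 and 1680 without WT replicate 1. For Il6st the difference was -0.68 (SE 0.11, adjusted p = 0.00833), and experiment 2 had 0.582 times the CPM of experiment 1 in TCRb-/- and 0.643 times in WT. For Il17ra it was -0.67 (SE 0.17, adjusted p = 0.0265), with ratios of 0.481 in TCRb-/- and 0.661 in WT. Without a trend in limma the test called 629 genes (4.52%) and 1 of the 9 receptors, Il6st (adjusted p = 0.0483), with Il17ra just outside (adjusted p = 0.0505). The Il17ra call did not hold without TCRb-/- replicate 1 (difference -0.62, adjusted p = 0.123), TCRb-/- replicate 2 (-0.54, adjusted p = 0.0916) or WT replicate 1 (-0.72, adjusted p = 0.0871). The Il6st call held without each library in turn (0.00287 to 0.0435). Il6ra moved the other way, by 1.38 times in TCRb-/- and 1.62 times in WT, a difference of 0.37 that did not pass (adjusted p = 0.175). The other 6 tested receptors lay between -0.04 for Il4ra and 0.25 for Il1r1, with adjusted p from 0.210 to 0.883.

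Over 13548 genes with an annotated length, the difference between experiments fell with exon length (Spearman rho = -0.398, a description across genes, which are not independent and share the 4 libraries). The median difference was 0.14 in the shortest quartile of genes and -0.18 in the longest, where 26.9% of genes were called lower. Il6st (11099 bases), Il17ra (8662 bases) and Il6ra (8642 bases) were in the longest quartile, and the first 2 lay below its median. All 8 striatal markers were also called lower in experiment 2 and 10 of 11 choroid plexus markers higher. The part of length and of tissue composition in the Il6st and Il17ra differences was not tested.

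**Figure D4:**
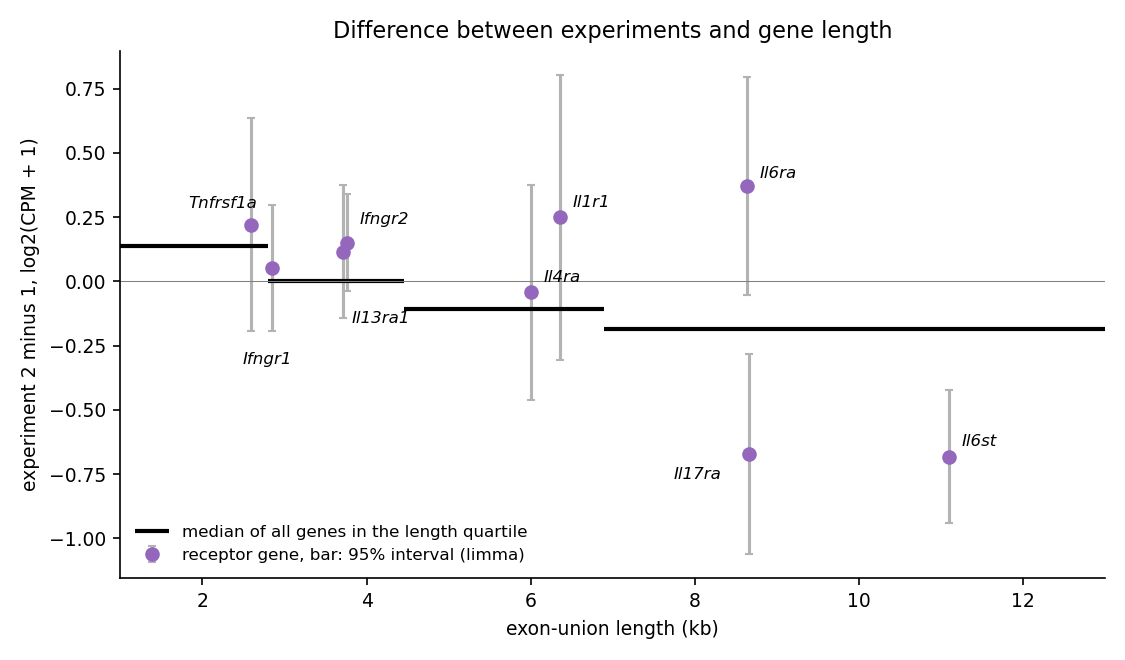
Difference between experiments (2 minus 1, log2(CPM + 1)) of the 9 tested receptor genes against exon length in kilobases, with 95% intervals from limma; black lines are medians of all genes in each length quartile. Il6st at -0.68 and Il17ra at -0.67 lie below the line of the longest quartile, at -0.18, and Il6ra lies above it at 0.37.

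By the likeness of their profiles over the 4 libraries (root mean square distance of centred log2 values), Ifngr1 and Ifngr2 were closest to each other, at 0.0576. Il17ra and Il6st were each other's nearest, at 0.137. Il1r1 was nearest to Tnfrsf1a, at 0.123, and Tnfrsf1a to Ifngr2, at 0.104. Il13ra1 and Il6ra were also nearest to Ifngr2, at 0.0914 and 0.117, Il4ra to Il13ra1, at 0.160, and Il17rd to Ifngr1, at 0.217. The least alike were Il17ra and Il1r1. With 4 libraries, and with both genes steady across them, the small distance of Ifngr1 and Ifngr2 is a description only.

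The other genes of these pathways showed no called genotype difference in any list (limma, with or without the block). Of 17 ligand genes 5 were listed and 3 tested. Il4 was tested, with 29 and 24 reads in TCRb-/- and 38 and 30 reads in WT. Ifng, Il13, Il17a, Il17f, Il6, Tnf and Il1b were not among the listed rows. The weakest listed rows reached 10 reads in their highest library, and how rows were chosen for deposit is not stated.

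Of 27 partner and related receptor genes 16 were listed and 15 tested, 7 of them higher and 1 lower in TCRb-/- in both experiments, with a median difference of 0.13. Cntfr, the CNTF-binding chain, had 56.5 and 51.4 CPM in TCRb-/- and 35.9 and 48.4 CPM in WT, with an unadjusted p of 0.0230 in the blocked limma fit. Tnfrsf1b had 5.17 and 5.75 CPM in TCRb-/- and 4.50 and 3.13 CPM in WT (unadjusted p = 0.0494), and Il17rc 9.27 and 11.7 CPM against 8.28 and 8.18 CPM (unadjusted p = 0.0670). None of these 3, picked for the smallest p, passed after adjustment. Both TCRb-/- libraries were above both WT libraries for 5 of the 15 partner receptors, beside 9.76% of all genes. Il12rb1, which the IL-12 and IL-23 receptors share, had an unadjusted p of 0.182. Il1rap had 28.1 to 34.1 CPM and Il11ra1, the IL-11-binding chain, 14.0 to 16.1 CPM.

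Among 10 tested JAK and STAT genes 1 was higher and 0 were lower in TCRb-/- in both experiments, with a median difference of 0.015. Stat6, which serves IL-4 and IL-13, had 9.48 to 11.4 CPM, and Jak1 98.6 to 126 CPM. Jak3, Jak1 and Stat5a had unadjusted p by genotype of 0.495, 0.533 and 0.619 in the blocked limma fit. Of the 10 JAK and STAT genes 3 were called lower in experiment 2, Jak2, Tyk2 and Stat3, and of the 15 partner receptors 2, Lifr and Ifnar1. Of 22 adaptor and NF-kB genes 4 were called lower, and of 24 inhibitors 2, beside 14.7% of all genes. None in these lists was called higher. How these calls hold with a library left out was not examined. Jak2 had 46.4 and 46.2 CPM in experiment 1 against 30.3 and 31.1 CPM in experiment 2 (difference -0.58, limma adjusted p = 0.00598). The differences of Tyk2, Stat3 and Lifr were -0.47, -0.34 and -0.52 (adjusted p = 0.0356, 0.0219 and 0.0395). Ifnar1, an interferon alpha and beta receptor chain named here only for its call, differed by -0.39 (limma adjusted p = 0.0353). Jak2 (5030 bases) and Tyk2 (6865 bases) were in the third length quartile, where 18.6% of genes were called lower, and Stat3 (9527 bases) and Lifr (10776 bases) in the longest, where 26.9% were; the part of length was not tested. Jak1, Cntfr, Il11ra1 and Stat6 were not called.

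Of 22 adaptor and NF-kB genes, all tested, 8 were higher and 2 lower in TCRb-/- in both experiments, with a median difference of 0.047. Irak1, a kinase below the IL-1 receptor, had 125 and 123 CPM in TCRb-/- and 111 and 111 CPM in WT (unadjusted p = 0.0526 in the blocked limma fit). Myd88, the adaptor of the IL-1 receptor, had 8.42 and 8.46 CPM in TCRb-/- and 6.94 and 7.51 CPM in WT (unadjusted p = 0.196). Traf3ip2, which encodes the IL-17 receptor adaptor Act1, and Tab2 followed, at unadjusted p of 0.235 and 0.258. Of 24 tested inhibitors 11 were higher and 4 lower in both experiments, with a median of 0.044. Socs2 had 14.5 and 16.2 CPM in TCRb-/- and 12.7 and 12.2 CPM in WT (unadjusted p = 0.0541), and Tnip1, a brake on NF-kB, 29.0 and 30.8 CPM against 25.4 and 26.6 CPM (unadjusted p = 0.0720). Socs3, a feedback inhibitor of gp130 signalling that STAT3 induces, had 3.34 and 2.80 CPM against 1.87 and 2.64 CPM (unadjusted p = 0.149). Usp18, an interferon-induced inhibitor, had 38 and 29 reads in TCRb-/- and 17 and 27 in WT (unadjusted p = 0.127). None of these passed after adjustment over all genes (limma adjusted p of 0.848 or more).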

How the data were processed

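RNA of septal tissue was measured in 4 libraries, 2 per genotype. Per the file headers, each file pairs a gene symbol with 1 value. The authors deposited values on a log2 scale: log2 of CPM with 0.5 added to the reads and 1 to the total, as the values show. The submitters' processing notes name mm10, HISAT2 2.1.0, SAMtools 1.3, HTSeq 0.9.1, R 4.0.5 and limma 3.46.0. Whole reads were recovered for 100% of values (tolerance 0.001 reads), and 17 of 15426 rows were spike-ins, which were left out.

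Values were tested as log2(CPM + 1) with limma 3.58.1 (R 4.3.3, empirical Bayes with a trend) on the 13912 genes whose mean reached 1 CPM. Benjamini-Hochberg adjustment was over all of them, at 0.05. The fit without the experiment was primary, and genotype plus experiment was the blocked fit. The experiments were compared with the experiment as the only term. The labels give each replicate number as a shared batch, and same-numbered libraries deviated together from their group means (r = 0.719 across genes), so that the numbers pair the libraries. Nothing says whether the pools hold independent litters, so p-values measure the spread between pools. Pools of the same genotype came from different experiments, so without the block that spread includes the experiment difference. For Il6st the SE of the genotype difference was 0.33 without the block and 0.0998 with it. RPKM used exon lengths of GENCODE M21 (GRCm38). On simulated data with a spread between experiments, the blocked fit recovered the changed genes and the fit without the experiment did not. The power of the blocked fit for differences as small as those of the receptors was not tested. Nor was its power tested for pools that differ in tissue within an experiment. A fixed count of 3 reads, taken as the limit for 0 reads, was 0.114 to 0.150 CPM. This limit was not computed with the intervals, which are Clopper-Pearson at 95%. Amplified reads are not independent molecules.

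The receptors and all gene lists were chosen with earlier results of these data known. Named genes are the 10 receptors, their direct partners and, per list, up to 4 with the smallest p in the blocked fit; 1 gene that this rule names is not reported here. The alternatives were the block, pseudocounts of 0.1 and 5, other filters and scalings, no trend, voom weights, each library left out and other transcript lengths.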

Additional observations from a re-analysis of the deposited data

How the results depend on the processing

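With all 4 libraries, the alternatives (pseudocount, filter, scaling, trend, voom weights, block) kept direction and side of the threshold for 113 of 113 receptor values between genotypes, with adjusted p from 0.848 to 1.00 (limma), and for 110 of 113 between experiments. The exceptions were Il4ra, whose experiment difference turned to 0.014 under quantile normalization with or without the block, and Il17ra, which missed the threshold without a trend (adjusted p = 0.0505). With the replicate block the genotype count over all genes was 2 in place of 0; the block combined with quantile normalization, voom weights or a pseudocount of 0.1 also gave 2, and the count was 1 with the block and no filter, an alternative chosen after seeing the data. The block changed no receptor's call. Leaving out 1 library gave genotype counts of 0 to 38, 38 without TCRb-/- replicate 1. The experiment count of 3292 was 629 without a trend and 1379 to 3395 with 1 library left out: 1379 without TCRb-/- replicate 1, 1680 without WT replicate 1 and 1797 without TCRb-/- replicate 2. A genotype with 1 library left was assumed to vary like the other. Leaving out 1 library kept 29 of 36 genotype and 30 of 36 experiment values of the receptors. The genotype difference ranged from -0.13 to 0.051 for Il13ra1, -0.51 to 0.34 for Il17ra, -0.21 to 0.54 for Il6st and -0.086 to 0.35 for Il6ra. The experiment difference ranged from -0.040 to 0.15 for Ifngr1, -0.25 to 0.17 for Il4ra and -0.079 to 0.58 for Il1r1. Fewer libraries enter each of these fits, and none of them held the block. With 1 library left out the experiments are unequal between the genotypes, so genotype and experiment differences are mixed in these ranges. The cause of the other changes was not tested. Count models were not run, since the deposited unit is log2. Depth limits Il17rd, Il6ra and Il1r1, at 8 to 65 reads a library.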
